A study of Homo sapiens with 13 samples.

Results

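Serine/arginine-rich splicing factors (SR proteins, symbols SRSF) and heterogeneous nuclear ribonucleoproteins (hnRNPs, symbols HNRNP) were followed by RNA sequencing in TE11, a human cell line from a squamous cell carcinoma of the esophagus. The members were all genes whose symbol is SRSF and a number, or HNRNP and further letters or numbers, without symbols of the pseudogene form ending in P or in P and a number. This gave 37 genes of 60591 in the table, 12 SRSF and 25 HNRNP. The rule reads symbols and no measured values. Of these, 35 passed the filter on low counts, as did 19514 genes in all. HNRNPCL3 and HNRNPCL4 did not pass, with at most 4 counts and 1 count in a library. The cells had been kept for 48 h with 10 µM chloroquine and 25 µM 5-fluorouracil (5-FU) together (combination, n = 3), with 25 µM 5-FU (n = 3), with 10 µM chloroquine (n = 3) or with 0.1% DMSO (vehicle, n = 4). The labels name DMSO for vehicle and do not say whether the drug groups carried it too. 5-FU is an antimetabolite that blocks thymidylate synthesis and is built into RNA and DNA. Chloroquine, an antimalarial, collects in lysosomes and stops autophagy at its last step.

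SR proteins bind exonic enhancers through RNA recognition motifs and recruit the splicing machinery through arginine/serine-rich domains, whose phosphorylation by SRPK and CLK kinases sets their place and activity. The hnRNPs coat nascent transcripts, and many of them repress exons that SR proteins promote. The balance between both families sets the choice of alternative exons, and both also take part in export, stability and translation of mRNA. Many of their genes control their own level through poison exons, whose inclusion sends the transcript to nonsense-mediated decay.

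Total counts ran from 17834539 to 23679833 per library. The tested members had from 7 counts (HNRNPCL2) to 51761 counts (HNRNPA2B1) in a library. Levels are CPM, the count relative to the library total after scaling by trimmed means. The sign ± gives the standard error (SE) for a log2 fold change and the SD for a level. Genes were called by edgeR's quasi-likelihood test where the p-value, adjusted by Benjamini-Hochberg across every gene tested, was below 0.05. The labels do not say that replicates came from separate cultures, and p-values then reflect only how far these libraries spread. A chi-square per gene between libraries of a group, near 1 for sampling noise alone, was 1.6 for chloroquine 1 and 2. It was 6.97 and 7.41 between these and chloroquine 3, and 2.21 to 21.3 in the other groups. What chloroquine 1 and 2 share is not given, and the chloroquine spread may rest on fewer than 3 separate samples. In such bulk RNA, fewer cells of a kind and less RNA per cell cannot be told apart. Of 10 squamous epithelium markers, 9 never passed 10 counts in the 8 libraries that held little COL1A2, and KRT5, KRT6A, KRT4 and IVL had none there. The summed counts of this list were 21 to 36 in the combination, 24 to 35 in 5-FU, 6 to 15 in chloroquine and 1 to 21 in vehicle. The 4 markers of simple epithelium (EPCAM, CDH1, KRT8 and KRT18) summed to 1788 to 1842 counts in the combination and 1486 to 1743 with 5-FU. They summed to 875 to 1168 counts with chloroquine and 907 to 1084 in vehicle. The sum, though not every marker, was thus higher in both groups with 5-FU. KRT8 rose by 2.41 ± 0.109 on the log2 scale with the combination (adjusted p = 5.07e-10) and by 2.15 ± 0.11 with 5-FU (adjusted p = 1.39e-09). EPCAM (0.64 ± 0.182 and 0.51 ± 0.183) and KRT18 (0.43 ± 0.0666 and 0.32 ± 0.0669) also rose in both, while CDH1 fell with the combination (-0.54 ± 0.191) and chloroquine (-0.67 ± 0.194) and had -0.43 ± 0.19 with 5-FU (adjusted p = 0.0665). The other 5 libraries (combination 2, 5-FU 2, chloroquine 1 and 2, vehicle 4) had between 153 and 741 COL1A2 (collagen) counts, and the 8 had between 1 and 7. Their summed fibroblast list ran from 663 to 2489 counts, against 202 to 613, their leukocyte list from 6 to 141 counts, against 0 to 6, and their red blood cell list from 48 to 291 counts, against 13 to 76. The endothelial list had at most 6 counts in any library. The 5 libraries held 1 library of each group other than chloroquine, and chloroquine 3 was the only chloroquine library of the 8. Fits of either set rest on single libraries in those groups. The part of any of these marker lists in the results was not tested, and calls against vehicle or between treatments that are lost without these 5 libraries are given with both values.

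In vehicle cells, levels per kilobase of merged exon (GENCODE 29) spanned a wide range. HNRNPAB had 450.0 ± 3.67 CPM per kb and HNRNPA2B1, which binds and sorts mRNAs and microRNAs, had 436 ± 11.1 (SD). HNRNPM at 328 ± 24.2 CPM per kb and HNRNPK at 326 ± 9.9 did not differ beyond their spread. SRSF9 at 230.0 ± 23.6 CPM per kb led the SRSF genes, with SRSF7 at 189 ± 6.73 and SRSF3 at 182 ± 10.0 after it within each other's spread. The lowest tested members per kb were HNRNPCL2 at 0.678 ± 0.217 and HNRNPCL1 at 2.36 ± 0.417 CPM per kb, copies of HNRNPC on chromosome 1, and SRSF12 at 3.16 ± 0.305. HNRNPUL2 had 8.3 ± 0.678 and HNRNPLL 14.6 ± 0.651 CPM per kb. All remaining tested members lay between 20.8 ± 0.404 CPM per kb (SRSF8) and 204 ± 8.17 CPM per kb (HNRNPD). These levels leave out reads counted in pseudogene rows, so the place of HNRNPA1 (140 ± 11.7 CPM per kb) is uncertain. Of the counts of a gene and its pseudogene rows, these rows held 43.9% to 48% for HNRNPL and 34% to 46.7% for HNRNPA3. For HNRNPC they held 27.8% to 34.2%, and for HNRNPK 17% to 19.8%. The places of these genes, and the closeness of HNRNPK to HNRNPM, are therefore uncertain too. Not divided by length, HNRNPA1 and its copies described below summed to 3039 ± 126 CPM in vehicle, beside 2592 ± 65.98 CPM for HNRNPA2B1.

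Annotation gave 2 features that the choice by symbol did not use. GENCODE 29 lists at least 1 transcript subject to nonsense-mediated decay for 12 of 12 SRSF genes and 13 of 25 HNRNP genes (52%), against 35.6% of 19969 protein-coding genes. Counts per gene do not separate such isoforms. In the RefSeq promoters (GRCh38.p14), matched for 34 of 37 members, the letters GCCATNTT (the element of the factor YY1, searched on both strands) lay within 20 bases before to 40 bases after a start in 6 of 34 members (17.6%) and in 3.64% of 27305 genes. Over the whole 300-base window it was 6 of 34 members and 7.97% of genes. The E-box letters CACGTG were found anywhere in the 300-base window in 7 of 34 members (20.6%), against 8.77% of genes. The letters TATAAA were found in 6 of 34 members (17.6%), against 14%, and CCAAT in 21 of 34 (61.8%), against 39.7% of genes. A match describes letters and shows no binding. A gene counted where any of its promoter entries matched, and the 34 members had 48 entries. With GCCATNTT, 1 of the 6 was HNRNPCL4, which did not pass the filter. Its bases from the element on match those shown for HNRNPC, so it may not be a separate case. The 60 bases around the start are shown for the 5 expressed members with GCCATNTT, since these include SRSF1, HNRNPC and HNRNPM, whose levels are described below. Capitals mark the element, and each line runs 5′ to 3′ on the gene's strand from 30 bases before the start.
SRSF1: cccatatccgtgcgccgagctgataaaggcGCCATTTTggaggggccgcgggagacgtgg
HNRNPC: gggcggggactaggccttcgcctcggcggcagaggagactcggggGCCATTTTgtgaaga
HNRNPD: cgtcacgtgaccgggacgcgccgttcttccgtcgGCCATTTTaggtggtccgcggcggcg
HNRNPUL1: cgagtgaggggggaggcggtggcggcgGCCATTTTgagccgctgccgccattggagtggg
HNRNPM: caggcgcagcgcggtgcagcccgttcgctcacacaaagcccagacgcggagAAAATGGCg
The windows lie at chr17:58007217-58007276 (minus strand, SRSF1), chr14:21269413-21269472 (minus strand, HNRNPC), chr4:82373962-82374021 (minus strand, HNRNPD), chr19:41264342-41264401 (plus strand, HNRNPUL1) and chr19:8444945-8445004 (plus strand, HNRNPM) of GRCh38.p14. In SRSF1 the element begins at the first transcribed base of this entry. In HNRNPM it is read on the other strand.

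Most SR and hnRNP genes fell in each comparison with vehicle. Against vehicle, 27 of the 35 tested members fell and none rose with the combination, 30 fell and 1 rose with 5-FU, and 26 fell and none rose with chloroquine. Over all genes tested, 27.2% fell and 28.1% rose with the combination, 29.5% fell and 30.8% rose with 5-FU, and 19.1% fell and 20.3% rose with chloroquine. The members' median log2 fold changes were -0.57, -0.66 and -0.36 in that order, beside medians of 0.01, 0.01 and 0.02 over all genes tested. A fall of at least 0.5 on the log2 scale was called in 20 members with the combination, 22 with 5-FU and 8 with chloroquine, beside 13.4%, 14.6% and 4.67% of all genes tested. The 3 comparisons share the vehicle libraries. The members' falls with the combination and with 5-FU stood beside the higher sum of the simple epithelium markers given above, of which CDH1 was not higher. The part of these markers was not tested. Called in either direction were 55.4% of all genes with the combination, 60.3% with 5-FU and 39.4% with chloroquine. DESeq2 and limma-voom also called no member higher with the combination or with chloroquine. At an unadjusted p under 0.05 by edgeR, 0 members were higher with the combination and 1 (SRSF5) with chloroquine.

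The summed CPM of the 12 SRSF genes was 2826, 2774 and 2885 in the combination, 2770, 3045 and 2965 with 5-FU, 3116, 3112 and 3414 with chloroquine, and 4241, 4238, 4155 and 3950 in vehicle. The summed CPM of the 25 HNRNP genes was 9091, 9148 and 9048 in the combination, 7781, 8523 and 8445 with 5-FU, 10250, 10140 and 10630 with chloroquine, and 13830, 13840, 13430 and 13250 in vehicle. Every drug-treated library was below every vehicle library in both families. The group means came to 68.2%, 70.6% and 77.5% of vehicle for SRSF in the combination, 5-FU and chloroquine. For HNRNP they came to 66.9%, 60.7% and 76.1%. The HNRNP sum was higher in every combination library than in every 5-FU library, while the SRSF sums of both groups overlapped.

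**Figure D1:**
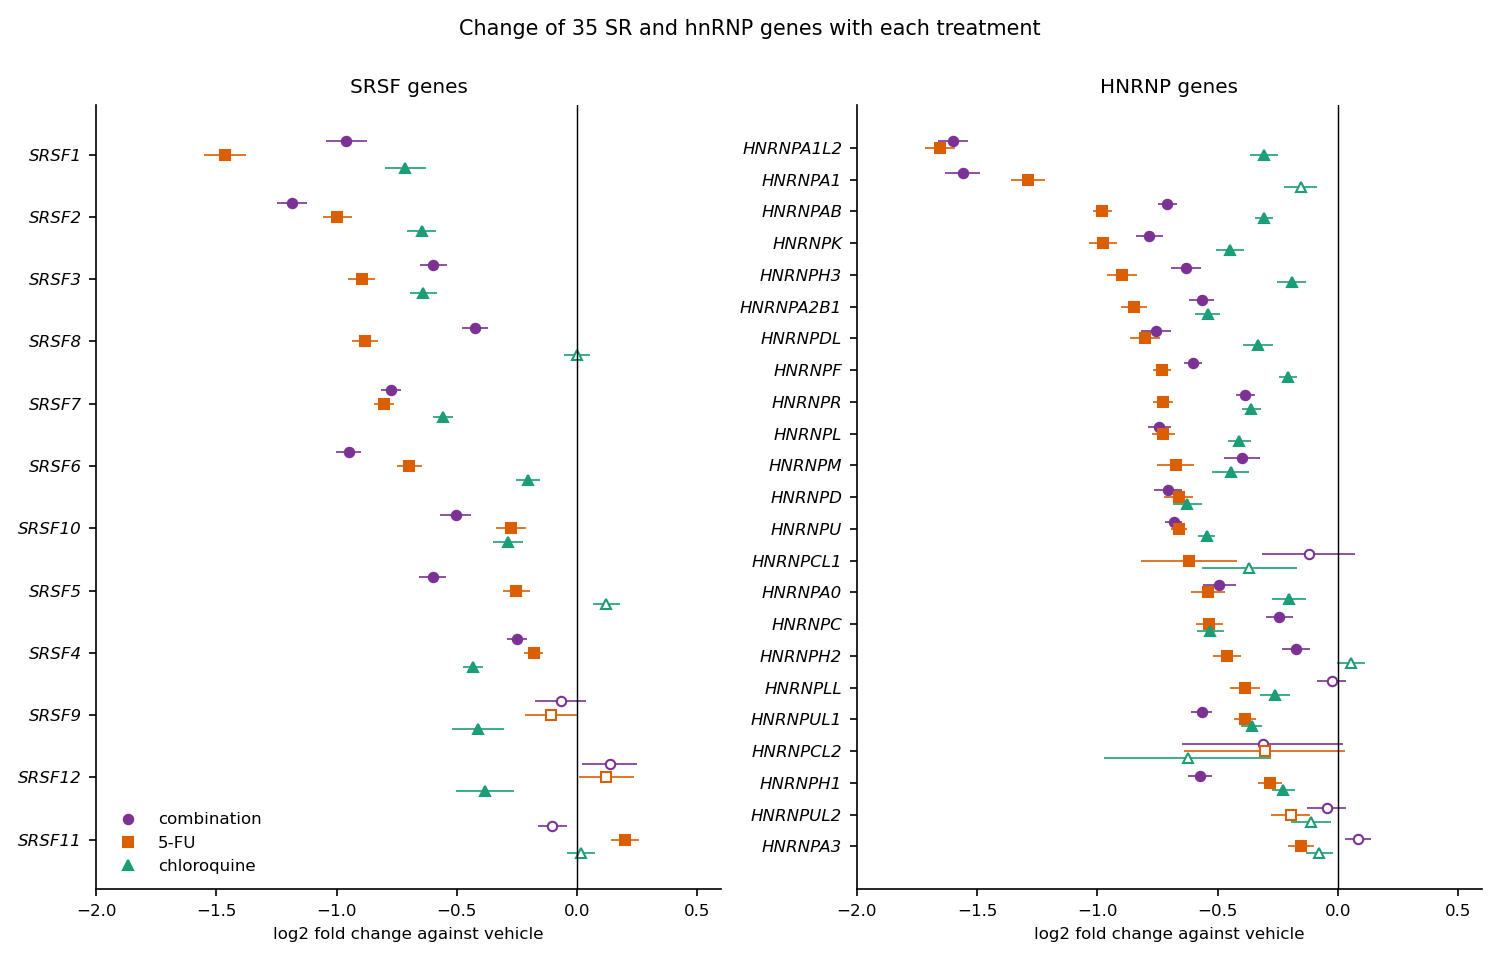
Log2 fold change against vehicle (x axis) of the 12 SRSF and 23 tested HNRNP genes (rows, ordered by the value with 5-FU) for the combination (circles), 5-FU (squares) and chloroquine (triangles), with bars of 1 SE; filled symbols were called and open ones were not. Nearly all symbols lie left of 0, HNRNPA1L2, SRSF1 and HNRNPA1 farthest with 5-FU (-1.66, -1.46 and -1.29), and chloroquine is mostly the nearest to 0.

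Among the SR proteins with a pair of RNA recognition motifs (SRSF1, SRSF4, SRSF5, SRSF6 and SRSF9), 4 of 5 fell with each treatment. SRSF1, which helps the U1 snRNP find the upstream splice site and acts as an oncogene when overproduced, had 162, 162 and 172 CPM in the combination, 102, 129 and 119 CPM with 5-FU, 180, 186 and 223 CPM with chloroquine, and 341, 331, 318 and 296 CPM in vehicle. All 4 groups were separate, with 5-FU the lowest. Its log2 fold change against vehicle was -0.96 ± 0.0865 in the combination (adjusted p = 3.93e-07), -1.46 ± 0.0885 with 5-FU (adjusted p = 6.63e-09) and -0.71 ± 0.0858 with chloroquine (adjusted p = 1.98e-05). SRSF6, known from exon choice in skin and tau transcripts, had 147, 146 and 135 CPM in the combination, 157, 181 and 173 CPM with 5-FU, 239, 235 and 245 CPM with chloroquine, and 280.0, 276, 277 and 271 CPM in vehicle. Again no groups overlapped, but here the combination was the lowest. Against vehicle it had log2 fold changes of -0.95 ± 0.0516 in the combination, -0.70 ± 0.0511 with 5-FU and -0.20 ± 0.0504 with chloroquine, with adjusted p = 2.75e-09, 4.14e-08 and 0.00517. The chloroquine value was no longer called in the 8 libraries with little COL1A2 (-0.18, adjusted p = 0.135).

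SRSF5 had 212, 203 and 210 CPM in the combination, 245, 276 and 274 CPM with 5-FU, 326, 333 and 373 CPM with chloroquine, and 319, 323, 318 and 303 CPM in vehicle. The combination libraries lay below all others, and every chloroquine library lay above every vehicle library. On the log2 scale, it differed from vehicle by -0.60 ± 0.0566 in the combination (adjusted p = 6.07e-07), -0.25 ± 0.056 with 5-FU (adjusted p = 0.0013) and 0.12 ± 0.0556 with chloroquine (adjusted p = 0.0971). SRSF4, the SR protein with the longest arginine/serine-rich domain, had its lowest values with chloroquine, at 234, 229 and 242 CPM, against 270, 256 and 276 CPM in the combination, 286, 281 and 274 CPM with 5-FU and 315, 319, 314 and 321 CPM in vehicle. Set against vehicle, the log2 fold changes came to -0.25 ± 0.0405, -0.18 ± 0.0405 and -0.43 ± 0.0408 in the combination, 5-FU and chloroquine (adjusted p = 0.00011, 0.0014 and 2.68e-06), and with scaling by library size alone the 5-FU value turned to 0.01. SRSF9 fell with chloroquine, to 200.5, 186 and 236 CPM, against 295, 293, 283 and 234 CPM in vehicle, where vehicle 4 overlapped chloroquine 3. The log2 fold change was -0.41 ± 0.108 (adjusted p = 0.0076). It was -0.07 ± 0.107 in the combination (adjusted p = 0.62) and -0.11 ± 0.107 with 5-FU (adjusted p = 0.4).

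All 4 SR proteins with a single RNA recognition motif (SRSF2, SRSF3, SRSF7 and SRSF8) fell with 5-FU and with the combination, and 3 of 4 with chloroquine. SRSF2, the speckle protein SC35 and a gene mutated in myeloid neoplasms, had 179, 174 and 185 CPM in the combination, 193, 212 and 208 CPM with 5-FU, 240, 255 and 287 CPM with chloroquine, and 423, 414, 411 and 382 CPM in vehicle. The groups were separate and ordered from the combination up to vehicle. The log2 fold changes were -1.19 ± 0.0619 in the combination (adjusted p = 1.85e-09), -1.0 ± 0.0615 with 5-FU (adjusted p = 8.15e-09) and -0.65 ± 0.0608 with chloroquine (adjusted p = 2.63e-06). SRSF3, the smallest SR protein and an adaptor of mRNA export, had 526, 509 and 550 CPM in the combination, 405, 442 and 442 CPM with 5-FU, 496, 494 and 550 CPM with chloroquine, and 830, 823, 810 and 735 CPM in vehicle. Here 5-FU was the lowest, and the combination overlapped chloroquine. Log2 fold changes against vehicle were -0.60 ± 0.0556, -0.90 ± 0.0561 and -0.64 ± 0.0557 in the combination, 5-FU and chloroquine (adjusted p = 5.33e-07, 9.45e-09 and 1.4e-06).

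SRSF7, a partner of SRSF3 in export with a zinc knuckle, had 272 to 279 CPM in the combination, 261 to 275 CPM with 5-FU, 312 to 326 CPM with chloroquine and 447 to 485 CPM in vehicle. The combination and 5-FU overlapped, below chloroquine and vehicle, and the log2 fold changes were -0.77 ± 0.0412, -0.80 ± 0.0412 and -0.56 ± 0.0409. SRSF8 arose as a copy of SRSF2, and its locus matched the SRSF2 coding sequence at 84.7% of aligned bases. It had 58.6, 64.3 and 64.4 CPM in the combination, 43.2, 46.9 and 46.0 CPM with 5-FU, 79.5, 83.8 and 87.9 CPM with chloroquine, and 83.8, 85.9, 82.7 and 82.3 CPM in vehicle. Chloroquine overlapped vehicle. The log2 fold changes of SRSF8 were -0.42 ± 0.0542 in the combination (adjusted p = 1.24e-05), -0.88 ± 0.0554 with 5-FU (adjusted p = 9.63e-09) and 0.00 ± 0.0535 with chloroquine (adjusted p = 0.995).

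Of the 3 divergent SRSF genes (SRSF10, SRSF11 and SRSF12), 1 fell with the combination, 1 rose and 1 fell with 5-FU, and 2 fell with chloroquine. With 5-FU, 30.8% of all genes tested rose and 29.5% fell, so the counts of these 3 are not set apart from that share. SRSF11, a protein known for the splicing of microexons, was the 1 member that rose, with 509, 633 and 580 CPM with 5-FU against 501, 500, 497 and 501 CPM in vehicle. The rise was 0.20 ± 0.0587 on the log2 scale (adjusted p = 0.0087), and without 5-FU 2 it was 0.12 (adjusted p = 0.0629). In the 8 libraries with little COL1A2 it was 0.11 (adjusted p = 0.128). SRSF10, a repressor of splicing when dephosphorylated, had 261, 269 and 247 CPM in the combination, 265, 335 and 309 CPM with 5-FU, 301, 302 and 299 CPM with chloroquine, and 362, 378, 366 and 364 CPM in vehicle. All treated libraries were below vehicle, and the log2 fold changes were -0.51 ± 0.063 in the combination (adjusted p = 9.55e-06), -0.28 ± 0.0626 with 5-FU (adjusted p = 0.0015) and -0.29 ± 0.0626 with chloroquine (adjusted p = 0.00225). SRSF12 was low, at 12.0 to 12.9 CPM in the combination, 9.83 to 14.8 CPM with 5-FU, 8.23 to 9.32 CPM with chloroquine and 10.3 to 12.5 CPM in vehicle. It was called with chloroquine (-0.38 ± 0.12, adjusted p = 0.0207), and the call was lost without vehicle 1 (-0.33), without chloroquine 1 (-0.38), without chloroquine 2 (-0.34) and in the 8 libraries with little COL1A2 (-0.26).

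**Figure D2:**
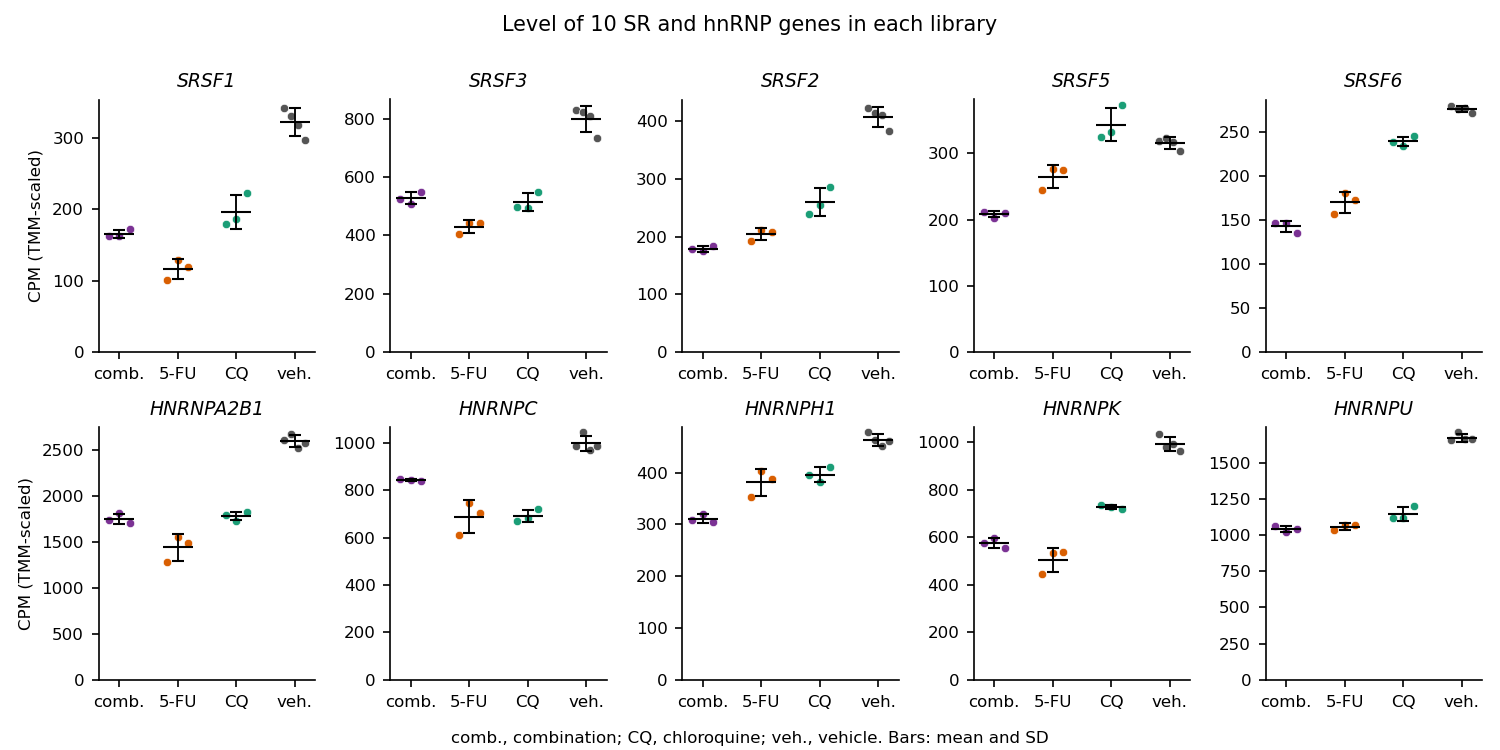
CPM of 10 SR and hnRNP genes in each of the 13 libraries (points), by group from the combination through 5-FU and chloroquine to vehicle, with the mean and SD of each group; every y axis starts at 0. SRSF1, SRSF3, HNRNPA2B1 and HNRNPK have their lowest points with 5-FU, and SRSF2, SRSF5, SRSF6 and HNRNPH1 have theirs in the combination.

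HNRNPA1, the main hnRNP repressor of exon inclusion, showed among the largest falls of the module. It had 202, 197 and 212 CPM in the combination, 226, 252 and 260 CPM with 5-FU, 525, 514 and 580 CPM with chloroquine, and 653, 622, 593 and 535 CPM in vehicle. The 5-FU-treated groups lay far below the others, and chloroquine overlapped vehicle. Relative to vehicle, its log2 fold changes were -1.56 ± 0.0717 in the combination (adjusted p = 5.6e-10), -1.29 ± 0.0708 with 5-FU (adjusted p = 2.64e-09) and -0.15 ± 0.0683 with chloroquine (adjusted p = 0.0879). DESeq2's Wald test called the chloroquine value (-0.17, adjusted p = 0.0465). HNRNPA1L2, an intronless copy on chromosome 13, had 69.3, 77.6 and 69.2 CPM in the combination, 63.5, 74.8 and 69.7 CPM with 5-FU, 182, 179 and 170.1 CPM with chloroquine, and 226, 218, 213 and 218 CPM in vehicle. Against vehicle it had log2 fold changes of -1.60 ± 0.0622 in the combination, -1.66 ± 0.0624 with 5-FU and -0.31 ± 0.0589 with chloroquine (adjusted p = 1.22e-10, 7.24e-11 and 0.000948).

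How reads were shared among the copies of HNRNPA1 bears on these values. The 75 rows named HNRNPA1P and a number, which the choice by symbol leaves out, held 72.5% to 79.8% of the counts of HNRNPA1 and these rows together. The rows HNRNPA1P48 (chromosome 16, annotated as protein coding in GENCODE 29), HNRNPA1P7 (chromosome 18) and HNRNPA1P10 (chromosome 19) were the largest. Over the 960-base coding sequence of HNRNPA1, identity was 99.4% for HNRNPA1P48, 99.1% for HNRNPA1P7, 99.6% for HNRNPA1P10 and 98.4% for HNRNPA1L2. The 60 bases at positions 647 to 706 of the coding sequence, counted from 1 at its start, hold the most differing positions of any 60-base stretch without a gap, and capitals mark bases that differ from HNRNPA1 (GENCODE 29 transcripts, GRCh38).
HNRNPA1: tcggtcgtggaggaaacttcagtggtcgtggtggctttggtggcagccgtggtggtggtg
HNRNPA1L2: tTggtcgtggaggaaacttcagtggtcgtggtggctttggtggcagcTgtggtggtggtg
HNRNPA1P48: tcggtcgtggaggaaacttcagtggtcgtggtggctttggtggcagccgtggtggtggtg
HNRNPA1P7: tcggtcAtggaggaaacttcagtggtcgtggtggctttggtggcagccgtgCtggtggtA
HNRNPA1P10: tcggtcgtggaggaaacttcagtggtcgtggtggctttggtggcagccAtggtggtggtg
HNRNPA1P48 and HNRNPA1 are identical over these bases, so the level of any single row is uncertain. With 5-FU, HNRNPA1P48 fell by 1.71 ± 0.0462, HNRNPA1P7 by 1.72 ± 0.0528 and HNRNPA1P10 by 1.78 ± 0.059 on the log2 scale. The sum of all 77 rows was 932, 943 and 972 CPM in the combination, 945, 996 and 1015 CPM with 5-FU, 2496, 2478 and 2733 CPM with chloroquine, and 3099, 3164, 3022 and 2871 CPM in vehicle. The sums did not overlap between either 5-FU-treated group and the rest, and every chloroquine sum lay below every vehicle sum. They came to 31.2%, 32.4% and 84.5% of vehicle in the combination, 5-FU and chloroquine. With chloroquine alone, HNRNPA1P48 changed by -0.27 ± 0.0438, HNRNPA1P7 by -0.23 ± 0.0501 and HNRNPA1P10 by -0.27 ± 0.0558 against vehicle. These rows were called, unlike the row HNRNPA1.

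**Figure D3:**
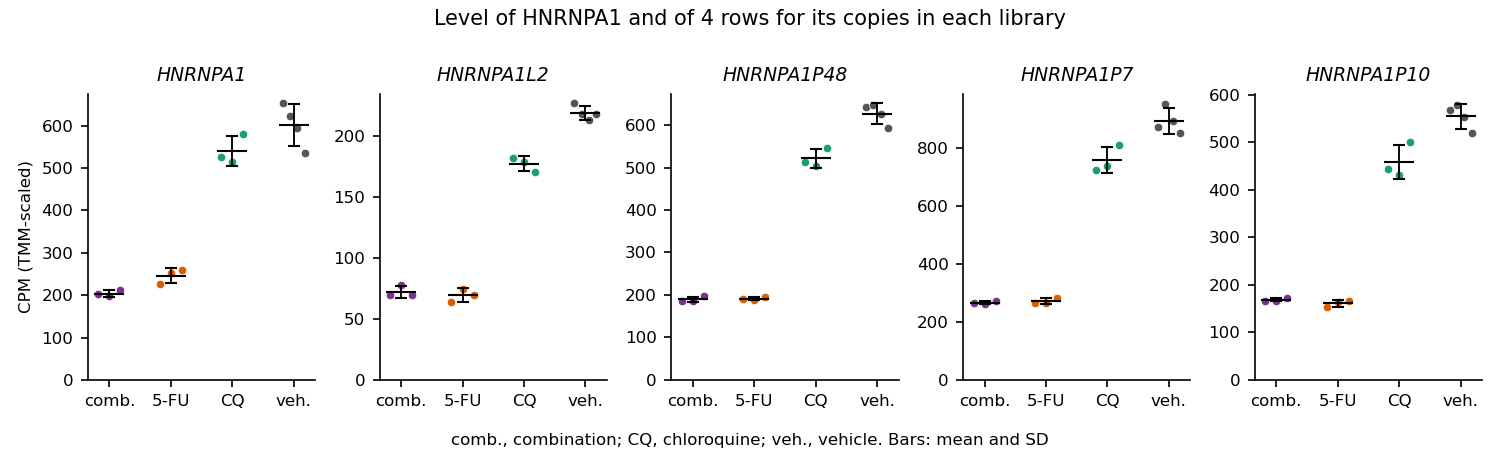
CPM of HNRNPA1 and of the rows for 4 of its copies (HNRNPA1L2, HNRNPA1P48, HNRNPA1P7 and HNRNPA1P10) in each library (points), by group from the combination to vehicle, with the mean and SD; every y axis starts at 0. In all 5 panels the combination and 5-FU libraries lie below all chloroquine and vehicle libraries, and HNRNPA1 is the 1 panel in which the combination and 5-FU points do not overlap.

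The other A, B and D type hnRNPs, which bind through paired RNA recognition motifs, fell with 5-FU in all cases. HNRNPA2B1 had 1734, 1811 and 1709 CPM in the combination, 1279, 1553 and 1487 CPM with 5-FU, 1791, 1730 and 1821 CPM with chloroquine, and 2606, 2675, 2517 and 2571 CPM in vehicle. Its log2 fold changes were -0.57 ± 0.053, -0.85 ± 0.0535 and -0.54 ± 0.053 (adjusted p = 5.76e-07, 9.89e-09 and 3.6e-06), with the combination and chloroquine overlapping. HNRNPAB had 505, 524 and 516 CPM in the combination, 427, 427 and 427 CPM with 5-FU, 703, 696 and 640 CPM with chloroquine, and 848, 832, 845 and 840 CPM in vehicle, all separate. Set against vehicle, the log2 fold changes came to -0.71 ± 0.038, -0.98 ± 0.0384 and -0.31 ± 0.0376 (adjusted p = 2.41e-09, 1.08e-10 and 2.24e-05). HNRNPD (AUF1), which binds AU-rich elements in mRNAs, fell alike with all treatments. It had 375, 392 and 384 CPM in the combination, 354, 428 and 404 CPM with 5-FU, 400, 388 and 428 CPM with chloroquine, and 642, 652, 605 and 604 CPM in vehicle. The log2 differences from vehicle were -0.71 ± 0.0599, -0.66 ± 0.0598 and -0.63 ± 0.0597. Its relative HNRNPDL changed by -0.75 ± 0.0627, -0.80 ± 0.0628 and -0.33 ± 0.0619, and HNRNPA0 by -0.49 ± 0.0701, -0.54 ± 0.0703 and -0.20 ± 0.0696, each in the order combination, 5-FU and chloroquine. The chloroquine call of HNRNPA0 (adjusted p = 0.0323) was lost without vehicle 1 (-0.17), 2 (-0.20) or 3 (-0.19), and without chloroquine 1 (-0.20) or 2 (-0.19). In the 5 libraries with more COL1A2, where vehicle had 1 library, the value was -0.04. HNRNPA3 moved least of this type, with 537, 535 and 518 CPM in the combination, 404, 487 and 460 CPM with 5-FU, 465, 462 and 496 CPM with chloroquine, and 511, 510, 498 and 483 CPM in vehicle. Log2 fold changes against vehicle were 0.08 ± 0.0548 in the combination (adjusted p = 0.217), -0.15 ± 0.055 with 5-FU (adjusted p = 0.0274) and -0.08 ± 0.055 with chloroquine (adjusted p = 0.295). The 5-FU call was lost without vehicle 1 (-0.14), vehicle 2 (-0.14) or 5-FU 1 (-0.08), and the value turned to 0.04 with scaling by library size alone. In the 5 libraries with more COL1A2, where 5-FU and vehicle had 1 library each, the value was 0.01. The copy HNRNPA3P6, identical to HNRNPA3 at 99.6% of aligned coding bases, was counted apart and changed by -0.57 ± 0.0822, -0.53 ± 0.0821 and -0.40 ± 0.0818, so the share of reads between both rows is uncertain.

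HNRNPC, whose tetramers coat nascent RNA and cover uridine tracts, had 848, 842 and 838 CPM in the combination, 612, 747 and 706 CPM with 5-FU, 669, 683 and 719 CPM with chloroquine, and 987, 1044, 971 and 988 CPM in vehicle. The combination lay above both single drugs and below vehicle, without overlap. The log2 fold changes were -0.24 ± 0.0555 in the combination (adjusted p = 0.00179), -0.53 ± 0.0559 with 5-FU (adjusted p = 1.37e-06) and -0.53 ± 0.0559 with chloroquine (adjusted p = 6.59e-06). Its pseudogene rows held 27.8% to 34.2% of the counts of HNRNPC and these rows, and the largest, HNRNPCP2, changed by -0.13 ± 0.0798, -0.49 ± 0.0806 and -0.57 ± 0.0809. HNRNPCL1, which matches the HNRNPC coding sequence at 94.7% of bases, had 2.38, 2.07 and 2.75 CPM in the combination, 2.03, 1.47 and 1.59 CPM with 5-FU, 1.93, 1.67 and 2.49 CPM with chloroquine, and 2.14, 3.02, 2.29 and 2.99 CPM in vehicle. It was called with 5-FU (-0.62 ± 0.199, adjusted p = 0.0146), but not without 5-FU 2 (-0.53) or 5-FU 3 (-0.58), nor in the 8 libraries (-0.47, adjusted p = 0.0746). HNRNPCL2 was between 0.396 and 1.04 CPM in all libraries and was not called against vehicle.

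The F and H type hnRNPs, which bind runs of guanines, fell in 4 of 4 cases with the combination and with 5-FU and in 3 of 4 with chloroquine. HNRNPF had 369, 372 and 365 CPM in the combination, 336, 335 and 339 CPM with 5-FU, 497, 489 and 465 CPM with chloroquine, and 575, 541, 564 and 556 CPM in vehicle, with no overlap between groups. Against vehicle it had log2 fold changes of -0.60 ± 0.0374, -0.73 ± 0.0376 and -0.21 ± 0.037. HNRNPH1 had its lowest values in the combination, at 308, 321 and 305 CPM, against 353, 402 and 387 CPM with 5-FU, 395, 382 and 411 CPM with chloroquine and 478, 462, 452 and 460 CPM in vehicle. On the log2 scale, it differed from vehicle by -0.57 ± 0.0485, -0.28 ± 0.0481 and -0.23 ± 0.0481 (adjusted p = 2.11e-07, 0.000148 and 0.00192), and in the 8 libraries the chloroquine value was -0.18 (adjusted p = 0.12). HNRNPH3 changed by -0.63 ± 0.062, -0.90 ± 0.0626 and -0.19 ± 0.0613. The chloroquine call of HNRNPH3 was lost without vehicle 1 (-0.17), vehicle 2 (-0.18), chloroquine 1 (-0.18) or chloroquine 2 (-0.16), and in the 8 libraries (-0.12). HNRNPH2 had 159, 159 and 160.1 CPM in the combination, 126, 132 and 134 CPM with 5-FU, 178, 178 and 204 CPM with chloroquine, and 184, 191, 174 and 170 CPM in vehicle. Set against vehicle, the log2 fold changes came to -0.17 ± 0.0574 in the combination (adjusted p = 0.0188), -0.46 ± 0.0579 with 5-FU (adjusted p = 8.73e-06) and 0.06 ± 0.0571 with chloroquine (adjusted p = 0.483). Without vehicle 2 the combination value was -0.14 (adjusted p = 0.0613). In the 5 libraries with more COL1A2, where the combination and vehicle had 1 library each, it was -0.10.

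Of HNRNPK, HNRNPL, HNRNPLL, HNRNPM and HNRNPR, all 5 fell with 5-FU and with chloroquine and 4 with the combination. HNRNPK, which binds cytidine-rich RNA and DNA through KH domains, had 575, 597 and 556 CPM in the combination, 444, 532 and 537 CPM with 5-FU, 736, 726 and 718 CPM with chloroquine, and 1033, 977, 993 and 963 CPM in vehicle. The groups were separate, and the log2 fold changes were -0.78 ± 0.0577, -0.98 ± 0.0581 and -0.45 ± 0.0571 (adjusted p = 5.68e-08, 5.68e-09 and 3.26e-05). HNRNPM had 652, 634 and 719 CPM in the combination, 583, 508 and 566 CPM with 5-FU, 610, 610.1 and 722 CPM with chloroquine, and 930, 920, 891 and 787 CPM in vehicle. Its log2 fold changes were -0.40 ± 0.0752, -0.67 ± 0.0758 and -0.45 ± 0.0754 (adjusted p = 0.000403, 2.87e-06 and 0.000348). HNRNPR had 283, 276 and 275 CPM in the combination, 209, 228 and 222 CPM with 5-FU, 277, 285 and 287 CPM with chloroquine, and 360.1, 369, 361 and 362 CPM in vehicle. Log2 fold changes against vehicle were -0.39 ± 0.0399, -0.73 ± 0.0404 and -0.36 ± 0.0399 (adjusted p = 1.6e-06, 2.9e-09 and 1.02e-05). HNRNPL, which binds CA repeats, changed by -0.74 ± 0.0471, -0.72 ± 0.047 and -0.41 ± 0.0466. Its relative HNRNPLL, known for control of CD45 splicing in T cells, had 75.5, 69.6 and 72.9 CPM in the combination, 52.3, 61.2 and 56.3 CPM with 5-FU, 59.7, 61.4 and 64.3 CPM with chloroquine, and 77.6, 75.0, 73.8 and 69.7 CPM in vehicle. The combination overlapped vehicle (-0.03 ± 0.0603, adjusted p = 0.749), while 5-FU (-0.39 ± 0.0612, adjusted p = 7.74e-05) and chloroquine (-0.26 ± 0.0611, adjusted p = 0.00381) lay below it. In the 8 libraries the chloroquine value was -0.23 (adjusted p = 0.0797).

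HNRNPU, the nuclear matrix protein SAF-A, which binds chromatin and nascent RNA, had 1063, 1022 and 1039 CPM in the combination, 1032, 1070 and 1073 CPM with 5-FU, 1120, 1115 and 1201 CPM with chloroquine, and 1654, 1710, 1661 and 1662 CPM in vehicle. All treated libraries were far below vehicle and close to each other. Relative to vehicle, its log2 fold changes were -0.68 ± 0.0348, -0.66 ± 0.0347 and -0.55 ± 0.0346 (adjusted p = 1.51e-09, 1.69e-09 and 9.53e-08). Its relatives differed: HNRNPUL1 changed by -0.57 ± 0.0444, -0.39 ± 0.0442 and -0.36 ± 0.0442, and HNRNPUL2 was not called with any treatment (-0.04 ± 0.0811, -0.20 ± 0.0817 and -0.11 ± 0.0818). HNRNPUL2 came close with 5-FU (adjusted p = 0.0508), and DESeq2's Wald test put it at -0.20 (adjusted p = 0.0425).

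Adding chloroquine to 5-FU went with changes in both directions. Against 5-FU, 14 of 35 members were higher in the combination and 8 were lower, beside 20.2% of all genes tested that were higher and 18.3% that were lower (38.5% in either direction). A difference of at least 0.5 was called in 1 member upwards and in none downwards, beside 5.38% and 10.2% of all genes. The median member differed by 0.05, and the median gene by 0.02. The largest rises were in SRSF1 (0.50 ± 0.0918, adjusted p = 0.000629), SRSF8 (0.46 ± 0.0586, adjusted p = 3.67e-05), HNRNPLL (0.36 ± 0.0648, adjusted p = 0.000577) and HNRNPR (0.34 ± 0.0425, adjusted p = 2.93e-05). SRSF3 (0.30 ± 0.0588), HNRNPC (0.29 ± 0.0591), HNRNPH2 (0.29 ± 0.0614), HNRNPA2B1 (0.28 ± 0.0561), HNRNPM (0.28 ± 0.08), HNRNPAB (0.27 ± 0.0401), HNRNPH3 (0.27 ± 0.0657), HNRNPA3 (0.23 ± 0.0586), HNRNPK (0.19 ± 0.0607) and HNRNPF (0.13 ± 0.0396) were also higher. The values of all 14 did not overlap between the combination and 5-FU. Called genes were picked on these same libraries, so a lack of overlap is no separate support. The row HNRNPA3P6 did not share the rise of HNRNPA3 (-0.04 ± 0.087, not called), so that rise is uncertain. The largest pseudogene rows of HNRNPC and HNRNPK were called higher (HNRNPCP2 0.36 ± 0.0854 and HNRNPKP4 0.17 ± 0.0478).

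The lower members were SRSF5 (-0.35 ± 0.0598, adjusted p = 0.000405), SRSF11 (-0.30 ± 0.063, adjusted p = 0.00167), HNRNPH1 (-0.29 ± 0.0513, adjusted p = 0.000491) and HNRNPA1 (-0.27 ± 0.0738, adjusted p = 0.00979). SRSF6 (-0.25 ± 0.0542), SRSF10 (-0.23 ± 0.0667), SRSF2 (-0.19 ± 0.0646) and HNRNPUL1 (-0.18 ± 0.047) followed, and SRSF10 was the 1 of the 8 whose libraries overlapped. Thus 5 of 12 SRSF genes and 3 of 23 tested HNRNP genes were lower, while 3 SRSF and 11 HNRNP genes were higher. For HNRNPA1 the nearly identical rows did not share the difference: HNRNPA1P48 changed by -0.01 ± 0.0474, HNRNPA1P7 by -0.02 ± 0.054, HNRNPA1P10 by 0.06 ± 0.0605 and HNRNPA1L2 by 0.05 ± 0.0652, none of them called.

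Residuals of same-numbered 5-FU and combination libraries correlated at 0.341, 0.743 and 0.339, while those of the other pairs of groups ran from -0.448 to 0.521. With the replicate number as a block, 18 of these 22 calls were kept. The others were HNRNPF (0.11, adjusted p = 0.285), HNRNPK (0.18, adjusted p = 0.0891), HNRNPUL1 (-0.20, adjusted p = 0.0555) and SRSF2 (-0.21, adjusted p = 0.0577). Leaving out 1 library also ended calls. HNRNPA1 was -0.23 without 5-FU 3 (adjusted p = 0.0513). SRSF2 was -0.16 without 5-FU 2, -0.18 without 5-FU 3, -0.19 without combination 1 and -0.17 without combination 2. SRSF10 was -0.16 without 5-FU 2 and -0.19 without combination 3, and HNRNPM was 0.21 without 5-FU 2 and 0.22 without combination 3. HNRNPK was 0.10 without 5-FU 1, 0.19 without combination 1 and 0.16 without combination 2, and HNRNPF was 0.13 without 5-FU 3 or combination 1 and 0.12 without combination 2. In the 8 libraries with little COL1A2, HNRNPF (0.12), SRSF10 (-0.18) and SRSF2 (-0.14) were not called and the other 19 were.

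Against chloroquine, 20 members were lower in the combination and 6 were higher, beside 25.7% and 24.8% of all genes tested (50.6% in either direction). The median member differed by -0.21, and the median gene by -0.01. HNRNPA1 (-1.41 ± 0.0746, adjusted p = 4.96e-09) and HNRNPA1L2 (-1.30 ± 0.0647, adjusted p = 2.92e-09) were the lowest, followed by SRSF6 (-0.75 ± 0.0543, adjusted p = 8.27e-08) and SRSF5 (-0.72 ± 0.0599, adjusted p = 2.84e-07). SRSF2 was also lower (-0.54 ± 0.0647), as were HNRNPK (-0.33 ± 0.0607), SRSF1 (-0.25 ± 0.0909), SRSF10 (-0.22 ± 0.0667), HNRNPUL1 (-0.21 ± 0.047), HNRNPH1 (-0.35 ± 0.0513) and HNRNPU (-0.14 ± 0.0366). The other lower members were SRSF7, SRSF8, HNRNPA0, HNRNPAB, HNRNPDL, HNRNPF, HNRNPH2, HNRNPH3 and HNRNPL, between -0.44 (HNRNPH3) and -0.21 (SRSF7). The higher members were SRSF12 (0.52 ± 0.125, adjusted p = 0.00319), SRSF9 (0.34 ± 0.115, adjusted p = 0.0216), HNRNPC (0.29 ± 0.0591, adjusted p = 0.000988), HNRNPLL (0.23 ± 0.0648, adjusted p = 0.00755), SRSF4 (0.18 ± 0.0433, adjusted p = 0.00285) and HNRNPA3 (0.16 ± 0.0586, adjusted p = 0.0348). The row HNRNPA3P6 did not share the higher value of HNRNPA3 (-0.17 ± 0.0871, not called), while HNRNPCP2 was higher like HNRNPC (0.43 ± 0.0855, called). SRSF3 did not differ by the test (0.04 ± 0.0588, adjusted p = 0.586).

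All 6 of these higher calls were lost in the 8 libraries with little COL1A2, where chloroquine has 1 library (SRSF12 0.40, SRSF9 0.21, HNRNPC 0.22, HNRNPLL 0.20, SRSF4 0.16 and HNRNPA3 0.08), as were the lower calls of HNRNPUL1 (-0.18) and SRSF10 (-0.24). SRSF1 was -0.14 without chloroquine 3, -0.24 without 5-FU 3 and -0.22 without combination 1 or 2, and was then not called. SRSF9 was 0.32 without chloroquine 1 and 0.27 without chloroquine 2 or combination 3, also not called. HNRNPA3 was 0.14 without chloroquine 1 or 2 and 0.16 without combination 1 or 2, HNRNPU was -0.11 without combination 2 and SRSF10 was -0.18 without combination 3, none of them called.

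The interaction asks whether chloroquine acted differently in the presence of 5-FU, as the difference between combination against 5-FU and chloroquine against vehicle. It was called above 0 in 25 of 35 members and below 0 in 2, beside 20.6% and 19.3% of all genes tested (39.9% in either direction), with a median of 0.45 over the members and 0.00 over all genes tested. A value of at least 0.5 was called in 13 members, beside 9.36% of all genes. SRSF1 had the largest value, at 1.22 ± 0.126 (adjusted p = 6.64e-06): with 5-FU present, chloroquine went with a log2 change of 0.50, and without 5-FU with -0.71. SRSF3 followed at 0.94 ± 0.0809 (adjusted p = 1.41e-06), from 0.30 with 5-FU and -0.64 without. HNRNPA2B1 and HNRNPC stood at 0.82 ± 0.0771 and 0.82 ± 0.0813 (adjusted p = 2.93e-06 and 4.63e-06), HNRNPM at 0.72 ± 0.11 (adjusted p = 0.000158), HNRNPR at 0.70 ± 0.0583 (adjusted p = 1.06e-06) and HNRNPK at 0.64 ± 0.0832 (adjusted p = 4.51e-05). HNRNPU (0.52 ± 0.0503), HNRNPD (0.58 ± 0.0866) and SRSF7 (0.59 ± 0.0595) were called too, though none of them differed between the combination and 5-FU by the test, as all fell with chloroquine alone. The values below 0 were SRSF5 (-0.47 ± 0.0816, adjusted p = 0.000433) and SRSF11 (-0.32 ± 0.0861, adjusted p = 0.00876). HNRNPA1 (-0.12 ± 0.1, adjusted p = 0.394), SRSF6 (-0.05 ± 0.0739, adjusted p = 0.655) and SRSF10 (0.06 ± 0.0913, adjusted p = 0.653) were not called. The nearly identical rows of HNRNPA1 were called above 0. HNRNPA1P48 had 0.25 ± 0.0645, HNRNPA1P7 0.21 ± 0.0736, HNRNPA1P10 0.33 ± 0.0822 and HNRNPA1L2 0.36. The interaction of HNRNPA1 taken from its own row is therefore uncertain. The calls of SRSF9, HNRNPCL1, HNRNPH2 and HNRNPUL1 depended on single libraries. HNRNPCL1 (0.87) was lost without vehicle 2, chloroquine 1, chloroquine 2, 5-FU 2, 5-FU 3 or combination 3 (0.74 to 0.83). SRSF9 (0.45) was lost without vehicle 1, 2 or 3, chloroquine 1 or 2, 5-FU 2 or 3, or combination 3 (0.37 to 0.46). HNRNPH2 (0.23) was lost without vehicle 1 or 2, chloroquine 1 or 2, 5-FU 1, or any combination library (0.20 to 0.25). HNRNPUL1 (0.18) was lost without any 1 library other than vehicle 1, 5-FU 1 and combination 2 (0.15 to 0.19). In the 8 libraries with little COL1A2 these 4 were not called (SRSF9 0.30, HNRNPCL1 0.51, HNRNPH2 0.14 and HNRNPUL1 0.16).

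**Figure D4:**
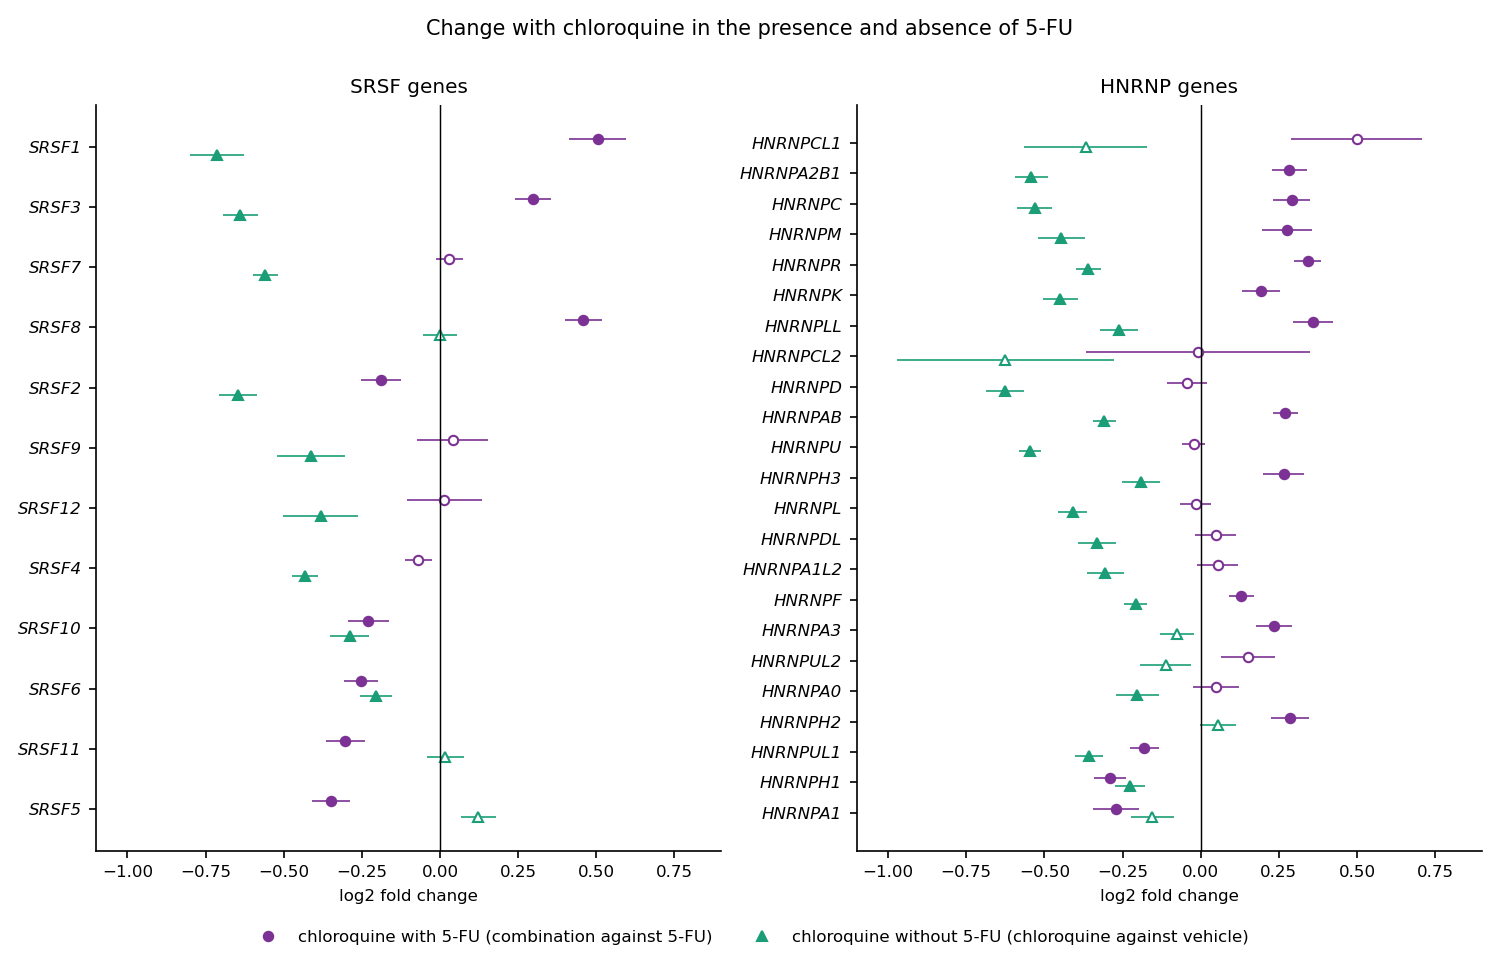
Log2 fold change with chloroquine in the presence of 5-FU (combination against 5-FU, circles) and in its absence (chloroquine against vehicle, triangles) for the tested SRSF and HNRNP genes (rows, ordered by the interaction), with bars of 1 SE; filled symbols were called and open ones were not. The gap between both symbols of a row is the interaction, widest among SRSF genes for SRSF1 (0.50 and -0.71) and reversed in sign at the foot of that panel for SRSF5 (-0.35 and 0.12).

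The genes that work with SR and hnRNP proteins did not all follow them. Of 12 kinases, phosphatases and importins of SR proteins, 4 rose and 6 fell with the combination, 5 rose and 5 fell with 5-FU, and 2 rose and 3 fell with chloroquine. Over all genes tested, 28.1% rose and 27.2% fell with the combination, 30.8% and 29.5% with 5-FU, and 20.3% and 19.1% with chloroquine. The same shares stand beside the lists that follow. CLK2, a nuclear kinase of the arginine/serine-rich domain, had 20.5, 20.4 and 19.1 CPM in the combination, 50.9, 48.7 and 52.3 CPM with 5-FU, 30.4, 31.7 and 30.2 CPM with chloroquine, and 40.4, 39.8, 39.3 and 39.8 CPM in vehicle. It was highest with 5-FU and lowest in the combination, with no overlap, and its interaction was -0.97 ± 0.0726 (adjusted p = 4.57e-07). CLK4 rose in the combination (0.64 ± 0.0602, adjusted p = 5.71e-07), and CLK3 rose with 5-FU (0.78 ± 0.061, adjusted p = 7.58e-08). SRPK3, a kinase best known from muscle, was low throughout and fell in the combination to 0.909, 0.764 and 0.903 CPM, against 4.56, 5.54, 5.98 and 6.03 CPM in vehicle (-2.68 ± 0.191, adjusted p = 4.03e-08).

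Of 16 SR-related proteins, 1 rose and 11 fell with the combination, 4 rose and 6 fell with 5-FU, and 2 rose and 8 fell with chloroquine. TRA2B, an activator of exons with GAA repeats, changed by -0.77 ± 0.0536, -0.81 ± 0.0537 and -0.57 ± 0.0533, and its interaction was 0.61 ± 0.0776 (adjusted p = 3.89e-05). BCLAF1 changed by -1.08 ± 0.0699 in the combination, and LUC7L, a component of the U1 snRNP, rose there by 0.50 ± 0.0526. SRRM2, the core protein of nuclear speckles, had 542, 531 and 504 CPM in the combination, 824, 744 and 756 CPM with 5-FU, 757, 769 and 675 CPM with chloroquine, and 559.9, 618, 592 and 671 CPM in vehicle. All single-drug libraries lay above all vehicle libraries and all combination libraries below them, and the interaction was -0.83 ± 0.0921 (adjusted p = 1.28e-05). Of 16 proteins with hnRNP character but other symbols, 2 rose and 11 fell with the combination, 1 rose and 12 fell with 5-FU, and none rose and 12 fell with chloroquine. RBMX changed by -1.06 ± 0.0554 in the combination, and PTBP2 by -0.75 ± 0.0722 with chloroquine.

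Of 36 proteins of the core spliceosome, 6 rose and 15 fell with the combination, 5 rose and 22 fell with 5-FU, and 2 rose and 26 fell with chloroquine. The medians were -0.09, -0.26 and -0.29, nearer 0 than those of the SR and hnRNP genes. The interaction was above 0 in 23 and below 0 in 3 of the 36, with SNRPF, a ring protein of the spliceosomal snRNPs, at 0.99 ± 0.122 (adjusted p = 2.91e-05) and SF3A2, of the U2 snRNP, at -0.77 ± 0.122 (adjusted p = 0.000223). Of 10 nonsense-mediated decay factors, 3 rose and 3 fell with the combination, 4 rose and 3 fell with 5-FU, and 1 rose and 1 fell with chloroquine. With the combination this was 30% in either direction, near the 28.1% and 27.2% of all genes tested, so these counts do not set the list apart. UPF3B, which links decay to the exon junction complex, rose in the combination by 0.84 ± 0.0613 (adjusted p = 4.97e-08). It changed by 0.60 ± 0.0614 with 5-FU and by -0.30 ± 0.0629 with chloroquine. These lists were set with earlier results of these data known, and their counts stand beside the shares over all genes given above.

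In 17 of the 37 genes an exon overlaps another annotated gene of GENCODE 29, and the sources used here do not give the strand setting of the counting. Among them are SRSF2 with MFSD11, SRSF9 with GATC, HNRNPA2B1 with CBX3, HNRNPAB with PHYKPL, HNRNPH3 with RUFY2, HNRNPU with COX20 and HNRNPUL1 with TGFB1 on the other strand, and HNRNPH2 and HNRNPUL2 with readthrough genes on the same strand. Their counts may hold reads of these neighbours. Pseudogene rows held 34% to 46.7% of the counts of HNRNPA3 and its pseudogene rows, 17% to 19.8% for HNRNPK and 43.9% to 48% for HNRNPL. The largest of them changed with 5-FU by -0.97 ± 0.0453 (HNRNPKP4) and -0.67 ± 0.0576 (HNRNPLP2), beside -0.98 and -0.72 for HNRNPK and HNRNPL. Beside these 3 genes and HNRNPA1 and HNRNPC, whose shares are given above, pseudogene rows held at most 5.33% for any member.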

How the data were processed

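RNA-seq of 13 TE11 libraries was used as the table of whole-number counts per gene that the authors deposited. The submitters' processing notes name DESeq and the mouse build GRCm38 beside human gene symbols. The sources used here do not give the aligner, counter, annotation or strand setting. The rule for members reads symbols alone, but the family to describe, like the lists, was chosen with earlier results of these data known.

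Totals were 17834539 to 23679833 counts per library, which limits precision for HNRNPCL1 and HNRNPCL2 most. Genes were filtered with edgeR 4.0.16 (R 4.3.3), scaled by trimmed means, fitted in 1 quasi-likelihood model with 4 groups, and p-values were adjusted by Benjamini-Hochberg over 19514 genes, with a threshold of 0.05. The procedure was tested on simulated data. Alternatives were DESeq2 1.42.0, limma-voom (limma 3.58.1), other scalings and filters, left-out libraries, a replicate block, pseudogene rows added to sums, and, chosen after seeing the data, fits of only the libraries under, or only those with at least, 50 counts of COL1A2 and a term for them. Residuals of same-numbered 5-FU and combination libraries correlated at 0.341, 0.743 and 0.339. The value of 0.743 is that of 5-FU 2 and combination 2, which both held more COL1A2. For the other pairs of groups, same-numbered libraries correlated between -0.448 and 0.521. The main fit used no pairing, and the replicate number entered only as the alternative block. No label says what a number shares.

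Genes named were, per comparison, the 4 called members at either end of the range of log2 changes, members called in the interaction, SRSF1, SRSF2, SRSF3, HNRNPA1, HNRNPC, HNRNPK and HNRNPU in any case, and called genes with the largest changes in each pathway list. Other members were added so that each subgroup is described in full. Gene models came from GENCODE 29 and promoters from RefSeq (GRCh38.p14), matched by symbol.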

Additional observations from a re-analysis of the deposited data

Results flagged for a closer look

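HNRNPU in vehicle 2 had 1710 CPM, apart from 1654, 1661 and 1662 CPM in the other vehicle libraries. The gap to its nearest neighbour was 0.857 of the range of the group, above Dixon's limit for 4 samples, which chance passes in about 1 of 20 groups. The check was made for every tested member and both family sums, so 1 such gap is not unusual.

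The log2 change with chloroquine differed between cells with and without 5-FU, by the edgeR interaction test, in 27 members. The differences were 1.22 for SRSF1, 0.94 for SRSF3, 0.59 for SRSF7, 0.46 for SRSF2, 0.46 for SRSF8, 0.45 for SRSF9 and 0.36 for SRSF4. Among hnRNP genes they were 0.87 for HNRNPCL1, 0.82 for HNRNPA2B1, 0.82 for HNRNPC, 0.72 for HNRNPM, 0.70 for HNRNPR, 0.64 for HNRNPK and 0.62 for HNRNPLL. HNRNPD and HNRNPAB had 0.58 each, HNRNPU 0.52, HNRNPH3 0.46, HNRNPL 0.39, HNRNPDL 0.38, HNRNPA1L2 0.36 and HNRNPF 0.34. The smallest were HNRNPA3 at 0.31, HNRNPH2 at 0.23 and HNRNPUL1 at 0.18. SRSF5 at -0.47 and SRSF11 at -0.32 had the opposite sign.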

How the results depend on the processing

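The counts of members that fell against vehicle stayed within 1.5 times under every other scaling, filter, tool and left-out library, except for the stricter fold limit with chloroquine. With a log2 change of at least 0.5 required, 8 fell with chloroquine and 0 rose with 5-FU; the combination had 1 higher and 0 lower members against 5-FU and 1 higher and 5 lower against chloroquine, and the interaction 13 above and 0 below 0. Scaling by library size alone moved the median of all genes by 0.15 with the combination, 0.20 with 5-FU, 0.12 with chloroquine and -0.14 in the interaction, and gave 1, 2 and 2 higher members against vehicle in that order and 4 below 0 in the interaction. Of all genes, 38% then rose and 18.8% fell with the combination, 42.5% and 18.8% with 5-FU, 27.9% and 12.4% with chloroquine, and 12.2% and 25.9% in the interaction. This scaling ended 2 of 27 calls with the combination and 5 of 26 with chloroquine against vehicle. With 5-FU it kept 25 of 31 calls, as 4 were lost and 2 turned in sign and were no longer called. It also ended 2 of 22 between the combination and 5-FU, 3 of 26 between the combination and chloroquine, and 7 of 27 in the interaction. HNRNPC with the combination was then -0.10 and not called. HNRNPA3 (0.04) and SRSF4 (0.01) then turned in sign with 5-FU. So did HNRNPA3 in the 5 libraries with more COL1A2 (0.01), where 5-FU and vehicle had 1 library each. Members higher against vehicle numbered 1 with the combination and 1 with chloroquine under the filter of 10 CPM and in fits of the 2 groups alone. With a term for COL1A2 there was 1 with chloroquine. In the 8 libraries with little COL1A2, 0 rose with 5-FU and 0 were higher in the combination than with chloroquine. Leaving out 1 library gave 0 to 2 risers with 5-FU.

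The summed SRSF CPM by library size alone was 2923 in the combination, 3119 with 5-FU and 3866 in vehicle, and the HNRNP sum 9402 in the combination, 8791 with 5-FU and 12670 in vehicle. With pseudogene rows added, the HNRNP sum was 10680 in the combination, 9736 with 5-FU, 13090 with chloroquine and 17050 in vehicle. The cause of these differences was not tested.

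With the replicate block, 18 of 22 calls between the combination and 5-FU were kept, and 28 of 31 between 5-FU and vehicle, where HNRNPA3 (-0.16), HNRNPCL1 (-0.53) and SRSF4 (-0.16) were lost. With chloroquine against vehicle all 26 were kept and HNRNPA1 (-0.19, adjusted p = 0.0203 by edgeR) was added. In the interaction 25 of 27 were kept, HNRNPCL1 (0.80, adjusted p = 0.0522) and HNRNPUL1 (0.16, adjusted p = 0.107) were lost, and HNRNPA0 (0.31, adjusted p = 0.0113) was added. Between the combination and chloroquine all 26 were kept and SRSF11 (-0.11, adjusted p = 0.045) was added, and between the combination and vehicle all 27 were kept.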
